A study of Mus musculus with 12 samples.

Results

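Layer 6 corticothalamic-type neurons were examined in the forebrain of newborn mice by single-nucleus RNA sequencing, a method that counts RNA molecules in isolated nuclei. The members were chosen by measured values, with unique molecular identifiers (UMIs, tags that each mark 1 captured RNA molecule) of 11 genes. A member had at least 2 UMIs of Hs3st4 and at least 2 UMIs over Tle4, Syt6 and Htr1f together. It had no UMI of the striatal genes Rarb and Rxrg or of the inhibitory neuron genes Gad1 and Gad2, and at most 1 UMI over the subplate genes Nxph4, Moxd1 and Cplx3. By this rule 7985 of 101742 nuclei that passed the filter were members, 5762 from wild-type (WT) and 2223 from heterozygous (Het) mice.

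The 12 libraries came from 1 animal each at postnatal day 1 (P1), with 8 WT and 4 Het animals of the MYT1L S710fsX line on a C57BL/6J background. Het animals carry 1 Myt1l allele with a frameshift and WT animals carry none, and no other allele or treatment was given. WT 1 to WT 5 and Het 1 to Het 3 were male, and WT 6 to WT 8 and Het 4 female. The allele is carried by all cells of the body, the animals came from several litters that the labels do not tie to animals, and the dissected region was labelled forebrain, which holds more than cortex. One passage of the study's methods names prefrontal cortex instead, so the tissue over which shares of nuclei were taken is not certain.

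Corticothalamic neurons sit mainly in cortical layer 6 and send their axons to the thalamus, where they adjust how sensory signals pass to the cortex. They are among the first cortical neurons to be born, and the transcription factors Tbr1, Sox5, Zfpm2 (Fog2) and Tle4 take part in setting them apart from the subcerebral neurons of layer 5 and the callosal neurons of the upper layers. Myt1l is a zinc finger transcription factor of postmitotic neurons. The comparison of Het with WT asks how the loss of a functional allele bears on these neurons shortly after birth.

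Between 15439400 and 40784100 UMIs were counted per library over 126684 barcodes, and none of the barcodes was shared between libraries. The median library had 8444.5 barcodes and 6824 nuclei that passed the filter in WT, and 13327.5 and 10841.5 in Het. The median UMI count per passing nucleus had a median of 2061 over WT and 1931 over Het libraries. The part of these differences in the comparisons below was not tested. Members held 328 to 1349 nuclei and 985286 to 3767560 UMIs per library. The median UMI count per member was 2616 ± 234 in WT (SD, n = 8). It was 2536 ± 192 in Het libraries (SD, n = 4), a difference smaller than the SD of either group (exact permutation test, two-sided p = 0.576, adjusted p = 0.576 over the 2 depth measures). The median number of genes was 1423 ± 88.2 in WT and 1387 ± 66.7 in Het libraries (exact permutation p = 0.497, adjusted p = 0.576). As a check for a library deposited more than once, the chi-square per degree of freedom over genes in members was 1.68 or more in all 34 pairs of the same genotype, and no pair matched within sampling noise.

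The label was checked with genes that the rule did not use. Levels are given in CPM, the counts per 1000000 UMIs in the sum over a class of nuclei in a library, and they compare a gene across classes, not genes with each other. Foxp2, a transcription factor of corticothalamic neurons, reached 1599 ± 130 CPM in members (SD over 12 libraries), against 97.1 ± 24.3 CPM in the other excitatory nuclei, which had at least 2 UMIs over Neurod2, Neurod6, Slc17a7 and Bhlhe22 and were no members. It was higher in members in all 12 libraries. Zfpm2, a cofactor of GATA-type transcription factors, stood at 2206 CPM in members and 348 CPM in the other excitatory nuclei. Sox5, which controls the timing of deep-layer neuron production, was at 3376 CPM in members and 1307 CPM in the other excitatory nuclei. Grik3, a kainate receptor subunit, was at 569 against 58.3 CPM, Tbr1 at 90.8 against 47.5 CPM and Fezf2, a regulator of subcortical projection, at 33.9 against 9.69 CPM.

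Genes of the upper layers were lower in members. Upper-layer-type nuclei were those with at least 2 UMIs over Cux2 and Rorb, none of Hs3st4 and at least 1 UMI of a further gene that is not reported here, and they may also be among the other excitatory nuclei. Unc5d, a netrin receptor of upper-layer neurons, was at 283 CPM in members, 1161 CPM in the other excitatory nuclei and 1057 CPM in upper-layer-type nuclei. Cux1, a homeodomain factor, was at 642 CPM in upper-layer-type nuclei and 103 CPM in members. Rorb was at 193 CPM and Cux2 at 35.0 CPM in members, and the upper-layer-type rule itself used both genes. After each nucleus was thinned to 800 UMIs, 61.4% ± 4.45 of members (SD over 12 libraries) had a Foxp2 UMI, against 4.56% ± 1.27 of upper-layer-type nuclei, and without thinning the shares were 80.3% and 13.2%. These values are a description of nuclei selected on expression and carry no test. Of markers of mature corticothalamic neurons, Crym was at 14.9 CPM in members and 2.31 CPM in the other excitatory nuclei, and Rprm at 6.10 and 4.68 CPM. Ntsr1 separated members less clearly than Crym, at 56.5 CPM against 33.9 CPM in the other excitatory nuclei and 39.3 CPM in upper-layer-type nuclei.

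**Figure D1:**
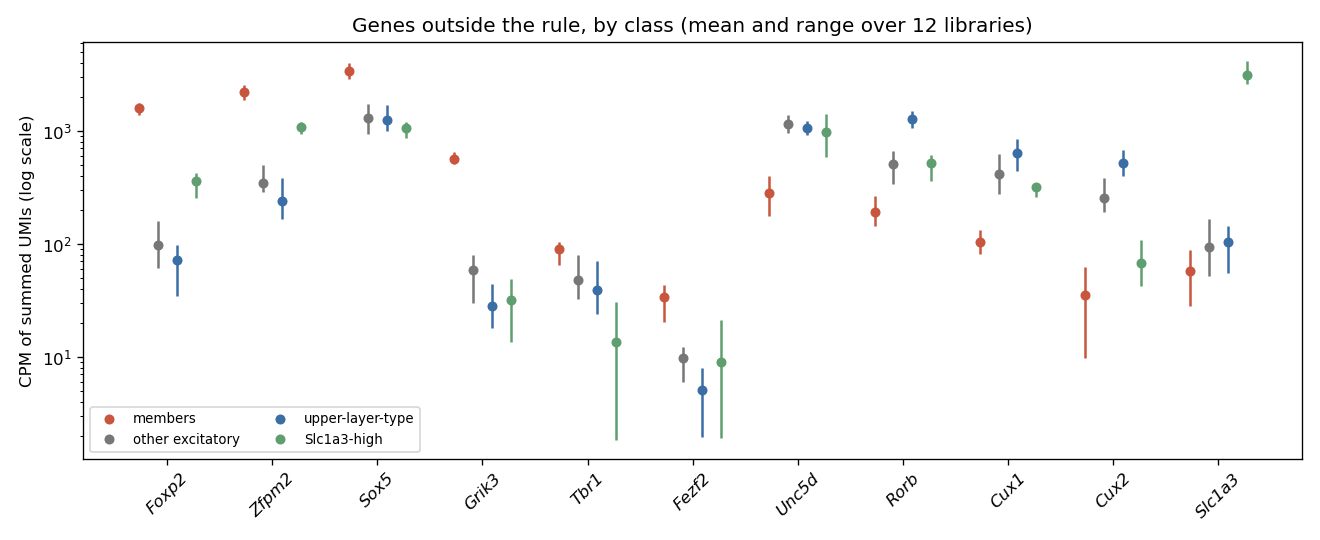
Levels of genes outside the rule in members, in other excitatory nuclei, in upper-layer-type nuclei and in nuclei with at least 3 Slc1a3 UMIs and none of Neurod2, Neurod6, Gad1 or Gad2. Points are means and lines the range over 12 libraries, on a log axis of CPM, and Foxp2, Grik3 and Fezf2 lie highest in members while Rorb, Cux1 and Cux2 lie highest in upper-layer-type nuclei.

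Marker lists of other cell types differed in how they stood in members. The layer 5 projection list shares Fezf2 and Crym, given above, and was mixed. Its Bcl11b was at 238 CPM in members and 87.8 CPM in other excitatory nuclei, Ldb2 at 772 and 1039 CPM and Pou3f1 at 5.21 and 24.6 CPM. The microglial list of 4 genes summed to between 2.47 and 10.7 CPM, the oligodendrocyte list of 4 genes to between 3.57 and 13.7 CPM, and the thalamic list of 4 genes to between 22.6 and 45.9 CPM. Of the thalamic genes, Slc17a6, a vesicular glutamate transporter, was at 24.3 CPM in members and 70.0 CPM in other excitatory nuclei, Tcf7l2 at 8.50 and 8.33 CPM and Lef1 at 2.93 and 3.85 CPM, while Gbx2 was at 0 in members and near 0 in every class. Of the glutamate transporters of astroglia, Slc1a3 was at 58.1 CPM in members and 94.4 CPM in other excitatory nuclei, while Slc1a2 was at 202 CPM in members and 65.0 CPM in other excitatory nuclei. The 5 genes of the inhibitory neuron list outside the rule summed to between 237 and 505 CPM, mainly Adarb2, at 356 CPM in members and 287 CPM in other excitatory nuclei. Reln, which also marks Cajal-Retzius cells, was at 199 CPM in members and 80.4 CPM in other excitatory nuclei, and Meis2, a gene of striatal neurons, at 773 and 1184 CPM. Drd1, the D1 dopamine receptor, was at 18.4 CPM in members against 2.67 CPM in other excitatory nuclei, and layer 6 neurons are known to carry this receptor. Of the members, 344 were marked as likely doublets, which are barcodes that hold 2 nuclei.

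The members lay well inside the rule for Hs3st4, a heparan sulfate sulfotransferase. The median member had 12 Hs3st4 UMIs (quartiles 7 and 19), 4 UMIs of the corepressor Tle4, 1 of the serotonin receptor Htr1f and 0 of the synaptotagmin Syt6. Just inside the threshold, 341 members (4.27%) had fewer than 3 Hs3st4 UMIs. Just outside it, 369 nuclei had from 1 to under 2 Hs3st4 UMIs and met every other part of the rule. The sum over Tle4, Syt6 and Htr1f was below 3 in 1038 members.

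The leading genes of members relative to other excitatory nuclei, taken by the ratio of their mean levels among genes outside the rule with at least 50 CPM in members, were Foxp2 (16.5 times), Cdh18 (2063 against 158 CPM), Tmem132d (11.4 times), Gsg1l (10.9 times), Grik3 (9.75 times) and Pappa2 (9.14 times). Cdh18 is a type II cadherin, Gsg1l an auxiliary subunit of AMPA receptors and Pappa2 a protease of insulin-like growth factor binding proteins. Col19a1, Tmem132c, Kctd8, Etl4 and Ildr2 followed, with ratios between 6.66 and 8.65. Each of these genes was higher in members in all 12 libraries. None of them was called for Het against WT, with log2 differences between -0.29 for Kctd8 and 0.31 for Col19a1 and edgeR adjusted p of 0.619 or more.

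The members were not uniform. Among the 4144 members with at least 2500 UMIs, 812 (19.6%) had no Foxp2 UMI and 2633 had at least 3, although their median depths were 3778 and 3405 UMIs. This split was chosen after the data had been seen, and the genes that go with it are a description. Members without Foxp2 had a median of 10 Hs3st4 UMIs and those with at least 3 Foxp2 UMIs a median of 19.

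Col19a1, a collagen gene, was at 399 ± 100 CPM in members without Foxp2 and 24.2 ± 8.66 CPM in those with at least 3 Foxp2 UMIs (SD over 12 libraries). Sorcs3, a sorting receptor, was at 748 against 74.5 CPM, Reln, the secreted glycoprotein that guides layer formation, at 715 against 88.6 CPM, and Pde3a, a cyclic nucleotide phosphodiesterase, at 127 against 6.91 CPM. Cntn4, a contactin of axon guidance, was at 848 against 222 CPM, and Cdh18 at 4892 against 1402 CPM. Tmem132d was at 1004 against 316 CPM and Etl4 at 1920 against 897 CPM. Col19a1, Cdh18, Tmem132d and Etl4, all among the leading genes above, were thus higher in the members without Foxp2 in all 12 libraries. Pappa2 was higher without Foxp2 in 9. Gsg1l and Grik3 were lower without Foxp2 in all 12, and Tmem132c, Kctd8 and Ildr2 in most.

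In the other direction, Sox5 was at 1770 ± 330 CPM in members without Foxp2 and 3845 ± 329 CPM in those with it. Syt6 was at 94.1 against 290 CPM, Htr1f at 205 against 534 CPM, Tbr1 at 57.7 against 101 CPM and Zfpm2 at 1674 against 2347 CPM. The peptidase Mme was at 12.9 against 63.2 CPM and the cadherin Cdh9 at 147 against 470 CPM. Tle4 differed less, at 1401 against 1661 CPM. Syt6, Htr1f, Tle4 and Hs3st4 were part of the rule and Foxp2 made the split, so the levels of these 5 genes do not bear on the label. Sox5, Tbr1, Zfpm2, Grik3 and Fezf2 were outside the rule. Each of the first 4 was lower without Foxp2 in all 12 libraries, with Grik3 at 458 against 573 CPM, and Fezf2 was at 20.9 against 35.7 CPM. In the other excitatory nuclei Sox5 was at 1307 CPM, Tbr1 at 47.5 CPM and Zfpm2 at 348 CPM, so that members without Foxp2 lay between those nuclei and the members with at least 3 Foxp2 UMIs in the mean of each gene, for Tbr1 by less than the SD of 15.0 CPM in the other excitatory nuclei. The same held for Grik3 and Fezf2. Members without Foxp2 lay nearer to the other excitatory nuclei in Sox5, Tbr1 and Fezf2 and nearer to the members with Foxp2 in Zfpm2 and Grik3, so these markers were mixed, and members without Foxp2 are called here only by that rule and their leading genes Pde3a, Col19a1 and Sorcs3. Of the members with at least 2500 UMIs, likely doublets made up 5.30% of those without Foxp2 and 7.25% of those with at least 3 Foxp2 UMIs.

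**Figure D2:**
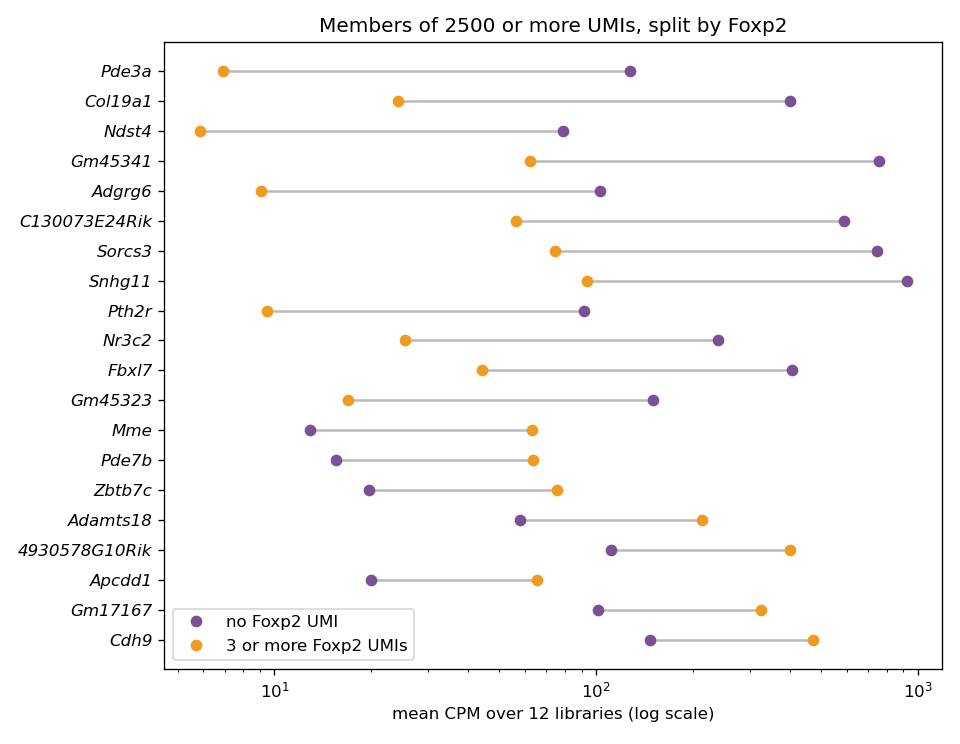
Mean levels over 12 libraries, in CPM on a log axis, of the 12 genes with the largest ratio in members without a Foxp2 UMI and the 8 with the largest ratio in members with at least 3 Foxp2 UMIs. Col19a1 lies at 399 and 24.2 CPM and Cdh9 at 147 and 470 CPM in the 2 sets.

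The share without Foxp2 differed between the genotypes. Among members with at least 2500 UMIs it had a lowest, median and highest value of 13.3%, 18.4% and 26.3% in the WT libraries, and it was 20.3% in Het 1, 28.0% in Het 2, 27.4% in Het 3 and 26.4% in Het 4. Of the WT libraries, 6 lay below the lowest Het library, while WT 2 and WT 8 lay above it. The means were 18.6% ± 3.98 (SD, n = 8) and 25.5% ± 3.57 (SD, n = 4), a difference of 6.93 percentage points (exact permutation test, two-sided p = 0.0162). This measure was picked after the data had been seen, and among males alone the difference was 6.30 points (exact permutation p = 0.107).

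The share of members among all nuclei was lower in Het libraries on average, but the groups overlapped. In WT libraries it was 4.48% at the lowest (WT 2, 95% exact binomial interval 4.02 to 4.98%), 8.27% at the median and 14.9% at the highest (WT 5, 14.2 to 15.7%). It was 3.67% (3.32 to 4.04%) in Het 1, 4.17% (3.80 to 4.56%) in Het 2, 5.21% (4.82 to 5.63%) in Het 3 and 8.64% (8.07 to 9.25%) in Het 4. Het 1 and Het 2 stood below every WT library, Het 3 above WT 2 alone, and the female Het 4 inside the WT range.

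The 8 WT libraries averaged 9.41% ± 3.45 (SD) and the 4 Het libraries 5.42% ± 2.24 (SD), 3.98 percentage points less, with all 4 Het libraries below the WT mean. This did not pass the threshold (exact permutation test, two-sided p = 0.0727, adjusted p = 0.145 over the share and 3 ratios). Leaving out 1 library brought its unadjusted exact permutation p below 0.05 in 2 cases, to 0.0303 without WT 2 and 0.0424 without Het 4. These p were not adjusted over the share and 3 ratios. The unadjusted p was also below 0.05 in limma on logit shares (log odds -0.59) and in limma with sex as a covariate (-0.54). The same held in limma with sex and label number as a block (-0.43), though the label numbers did not pair the libraries. The unadjusted result thus depended on the test. After thinning to 800 UMIs the difference was -2.13 points (exact permutation p = 0.105). A share moves with every other class of nuclei in a library, and intervals cover counting error only.

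**Figure D3:**
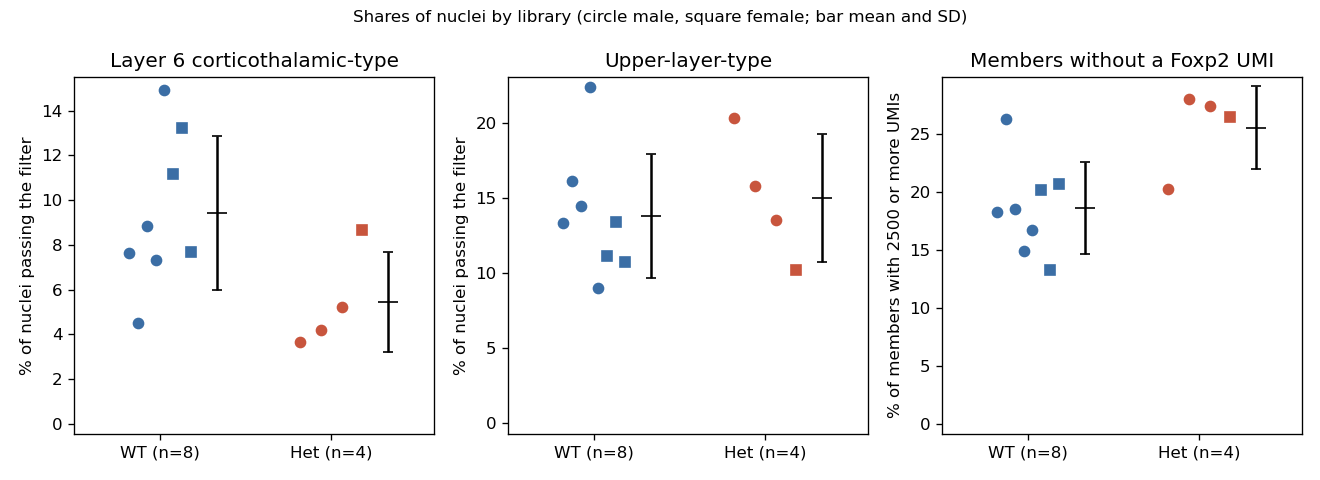
Percent of nuclei that were layer 6 corticothalamic-type, percent that were upper-layer-type, and percent of members with at least 2500 UMIs that had no Foxp2 UMI, with 1 point per library, circles for males and squares for females. Bars give the mean and SD of 8 WT and 4 Het libraries, and the first panel has means of 9.41% and 5.42%.

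The ratio of members to upper-layer-type nuclei was below the WT mean in 3 of the 4 Het libraries. The libraries held 514 to 2229 upper-layer-type nuclei. The number of members per upper-layer-type nucleus was between 0.278 and 1.66 in WT libraries, and it was 0.180 in Het 1, 0.263 in Het 2, 0.384 in Het 3 and 0.849 in Het 4. On the log2 scale the WT mean was -0.59 ± 0.86 (SD, n = 8) and the Het mean -1.5 ± 0.95 (SD, n = 4), a difference of -0.91 (exact permutation p = 0.125, adjusted p = 0.167). Leaving out Het 4 gave a difference of -1.33 (exact permutation p = 0.0424). The upper-layer-type share itself was 13.8% ± 4.13 in WT and 15.0% ± 4.26 in Het libraries.

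The layer 5-type and layer 6b/subplate-type rules found only 5 to 15 and 2 to 11 nuclei per library, so ratios to them rest on small counts. Counts of these 2 classes below 0.5 were set to 0.5, which did not occur before thinning. The log2 ratio of members to layer 5-type nuclei differed by -0.24 between the genotypes (exact permutation p = 0.632, adjusted p = 0.632). The log2 ratio to layer 6b/subplate-type nuclei averaged 7.39 ± 0.90 over WT (SD, n = 8) and 6.07 ± 0.59 over Het libraries (SD, n = 4), a difference of -1.33 (exact permutation p = 0.0323, adjusted p = 0.129). Without Het 1 its p was 0.0970 (exact permutation), and after thinning the difference turned to 0.54.

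Within the members, gene levels of Het and WT libraries were compared on UMIs summed per library, with edgeR's quasi-likelihood test over 10272 genes. Calls needed an adjusted p (Benjamini-Hochberg) below 0.05 and a log2 difference of at least 0.2. Of all genes tested, 1 was called (0.00974%), and 856 had an unadjusted p below 0.05, 458 higher in Het (4.46%) and 398 lower (3.87%). The Het libraries did not overlap the WT libraries in 37 genes that were higher in Het (0.36%) and 29 that were lower (0.282%).

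Myt1l (ENSMUSG00000061911.15) carries the frameshift, and its transcript is still counted, so its level does not check the genotype. It ranged from 1273 to 1602 CPM in WT libraries with a median of 1363, and it was 1511, 1715, 1529 and 1583 CPM in Het 1 to Het 4. The ranges overlapped. The log2 difference was 0.17 ± 0.07 (SE), with an edgeR adjusted p of 0.514. Of its relatives, St18 had a log2 difference of 0.55 and Myt1 of 0.10, and neither passed the test.

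The called gene was Gm29478 (ENSMUSG00000100341.1), a long intergenic noncoding RNA on the plus strand of chromosome 9, from 91404474 to 91562818 (GRCm38), with no other annotated gene in that span. Its nearest protein-coding neighbours are Zic4, 15126 bases away, and Zic1, 38664 bases away, which encode zinc finger transcription factors. Zic1 had a mean level of 7.89 CPM in WT members (SD 3.28 over 8 libraries), and the Het mean was 14.3 CPM (SD 4.71 over 4 libraries). Its log2 difference was 0.88 (edgeR adjusted p = 0.345), and the groups overlapped. Zic4, which was below the filter on low counts, had means of 3.78 and 6.99 CPM. Zic1 was at 13.7 CPM in members without Foxp2 and 8.95 CPM in those with at least 3 Foxp2 UMIs. For Gm29478, WT libraries had a lowest level of 0, a median of 2.94 and a highest of 8.12 CPM, the highest in WT 2. Het 1 to Het 4 had 11.3, 25.6, 20.5 and 9.23 CPM, all above every WT library. The log2 difference was 2.65 ± 0.40 (SE, edgeR adjusted p = 0.0135). The gene rests on 136 UMIs over 12 libraries, and it was not called without Het 2 (edgeR adjusted p = 0.201) or without Het 3 (edgeR adjusted p = 0.178).

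In upper-layer-type nuclei Gm29478 was also higher in Het, with a mean of 6.27 ± 1.89 CPM in Het (SD, n = 4) against 2.21 ± 1.13 CPM in WT libraries (SD, n = 8). There its log2 difference was 1.58 ± 0.29 (SE, edgeR adjusted p = 0.0819). The difference between the 2 classes did not pass the test (log2 1.02, edgeR adjusted p = 0.597). Members without Foxp2 held 20.7 ± 29.6 CPM of it and those with at least 3 Foxp2 UMIs 4.14 ± 3.58 CPM (SD over 12 libraries), and it was higher without Foxp2 in 7 of the 12. It fell below the filter on low counts when the test was limited to members with a Foxp2 UMI, where 0 of 9453 genes were called and 723 had an unadjusted p below 0.05.

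No other gene passed the test. The next smallest p belonged to Zfp521, Sv2c, Sntg2, Ebf1, Gm46102, Cabp1, Trhde, Car10 and Tmem91, with edgeR adjusted p between 0.0928 and 0.188. Each of the 10 genes kept its direction in all 12 fits that left out 1 library. They were picked by p in the same libraries, so this is no further support.

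Zfp521, a zinc finger cofactor that promotes early neural fate, had 12.7 CPM in the lowest, 19.1 in the median and 21 in the highest WT library. Het 1 to Het 4 had 33.6, 47.8, 42.9 and 22.8 CPM. No library overlapped, and Het 4 lay closest to WT. The log2 difference was 0.93 ± 0.17 (SE, edgeR adjusted p = 0.0928), and without Het 4 it was 1.14 (edgeR adjusted p = 0.00151). Ebf1, a helix-loop-helix factor of striatal and olfactory neurons, had 10.5 to 25.8 CPM in WT and 26.2, 26.6, 44.4 and 29.9 CPM in Het 1 to Het 4, also without overlap. Its log2 difference was 0.94 ± 0.19 (SE, edgeR adjusted p = 0.122). Without WT 1, its edgeR adjusted p was 0.0180.

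Sv2c encodes a synaptic vesicle glycoprotein. It had 10.7 CPM in the lowest, 15.5 in the median and 19.8 in the highest WT library and 48.8, 32.1, 28.6 and 21.5 CPM in Het 1 to Het 4, which did not overlap. The log2 difference was 1.03 ± 0.19 (SE, edgeR adjusted p = 0.0928), and without Het 4 it was 1.22 (edgeR adjusted p = 0.00824). In upper-layer-type nuclei it was 0.64 ± 0.13 (SE, edgeR adjusted p = 0.0949). Members without Foxp2 had 55.6 CPM of Sv2c and those with at least 3 Foxp2 UMIs 12.4 CPM. Among members with a Foxp2 UMI the difference was 0.78 (edgeR adjusted p = 0.469). Without WT 2, Zfp521 and Sv2c also had edgeR adjusted p below the threshold, 0.0365 and 0.0344.

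Sntg2, a syntrophin of the dystrophin complex, had 5.22 to 16.2 CPM in WT and 21.3, 18, 27.3 and 14.6 CPM in Het 1 to Het 4, with an overlap of WT 2 and Het 4. Car10, a carbonic anhydrase-related ligand of neurexins, had 19.5 to 67.9 CPM in WT, the highest in WT 2, and 71.7, 77.7, 66.8 and 56.3 CPM in Het 1 to Het 4, so that WT 2 overlapped Het 3 and Het 4. Both were mainly genes of the members without Foxp2, with 38.3 against 7.07 CPM for Sntg2 and 156 against 21.1 CPM for Car10. The log2 difference of Car10 was 0.86 in all members and 0.17 ± 0.36 (SE, edgeR adjusted p = 0.961) in members with a Foxp2 UMI. Without WT 2 or Het 4, Sntg2 had edgeR adjusted p of 0.0344 and 0.0238. Without WT 2, that of Car10 was 0.0331.

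Trhde, the enzyme that degrades thyrotropin-releasing hormone, had a log2 difference of 0.49 and levels of 142 to 213 CPM in WT and 213 to 291 CPM in Het, where the highest WT and the lowest Het library met. Tmem91 had 3.19 to 5.65 CPM in WT and 7.05 to 9.76 CPM in Het, without overlap. Levels without Foxp2 and with at least 3 Foxp2 UMIs were 17.6 and 3.22 CPM for Tmem91, 305 and 172 CPM for Trhde, 33.5 and 16.8 CPM for Ebf1, 46.3 and 20.6 CPM for Zfp521, and 34.3 and 82.4 CPM for Cabp1. Tmem91 was below the filter on low counts among members with a Foxp2 UMI, where the log2 differences were 0.40 for Trhde, 0.70 for Ebf1, 0.80 for Zfp521 and -0.48 for Cabp1 (edgeR adjusted p of 0.292 to 0.523). For Tmem91, Trhde, Ebf1, Zfp521 and Cabp1 the direction of the Het difference was that of a larger share without Foxp2, and the part of that share in it was not tested beyond these values. Gm46102 went the other way, with 22.2 CPM without Foxp2 and 15.9 CPM with at least 3 Foxp2 UMIs, and lower levels in Het. In upper-layer-type nuclei the log2 differences were 0.28 for Trhde, 0.52 for Ebf1 and 0.40 for Zfp521. There Cabp1 had -0.31 and Gm46102 -0.67, and none of these passed the test (edgeR adjusted p of 0.233 to 0.525). These were the directions seen in members, and no class difference of these genes passed (edgeR adjusted p of 0.238 to 0.844). Sntg2 had -0.03 and Car10 -0.003 in upper-layer-type nuclei. Gm46102, a long intergenic noncoding RNA, and Cabp1, a calcium-binding protein that modulates calcium channels, had lower levels in Het. Gm46102 had 15.4 to 26.6 CPM in WT and 12.3, 6.14, 9.27 and 13 CPM in Het 1 to Het 4, without overlap. Its log2 difference was -1.07 ± 0.22 (SE, edgeR adjusted p = 0.122), and -1.30 (edgeR adjusted p = 0.292) among members with a Foxp2 UMI. Cabp1 had 58.9 CPM in WT 8 and at least 80.5 CPM in the other WT libraries, against 58.4 to 65.5 CPM in Het, so that WT 8 alone overlapped. Without WT 8 its log2 difference was -0.58 (edgeR adjusted p = 0.0123).

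**Figure D4:**
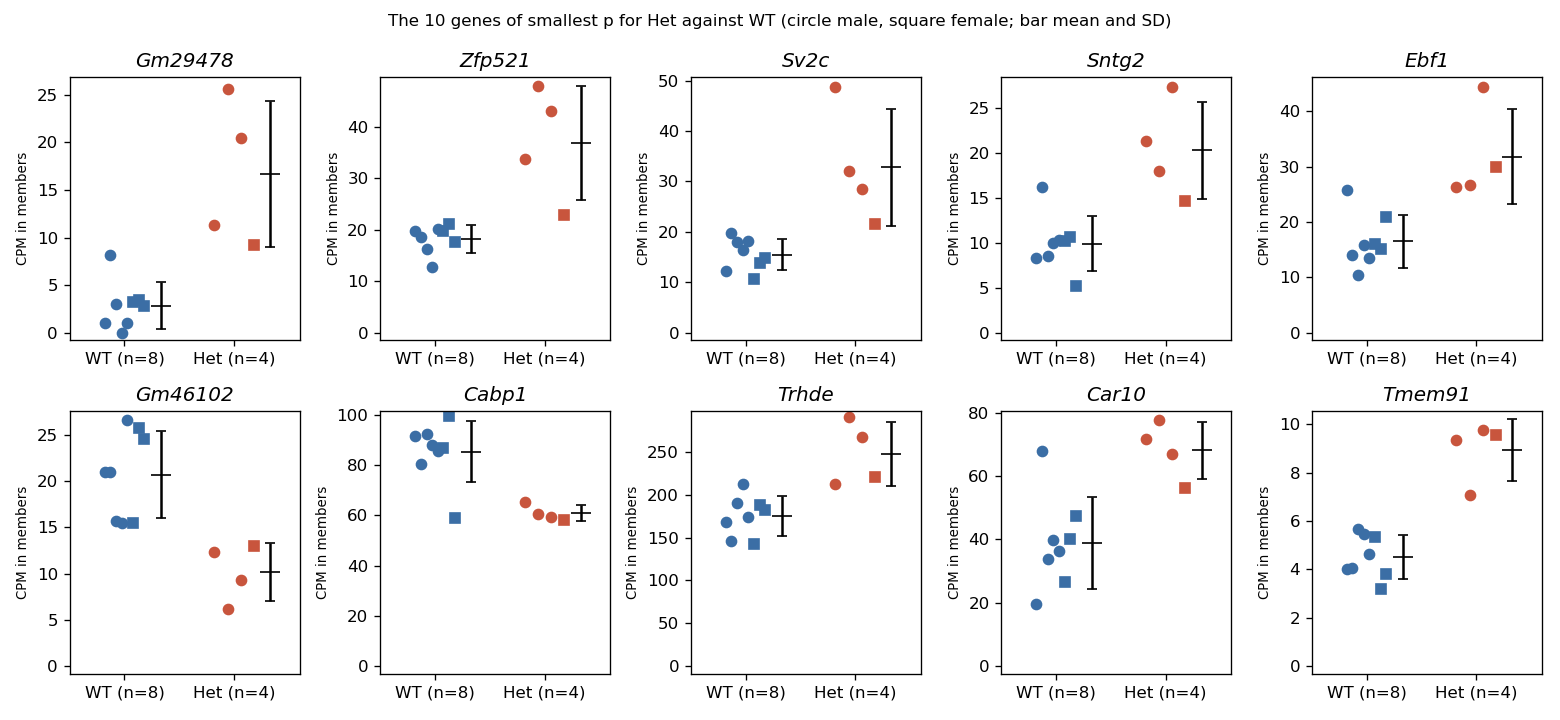
Levels in members, in CPM, of the 10 genes with the smallest p for Het against WT, with 1 point per library, circles for males and squares for females, and bars for the mean and SD. Gm29478 lies at 0 to 8.12 CPM in the 8 WT libraries and 9.23 to 25.6 CPM in the 4 Het libraries.

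The promoter windows of the noncoding RNA that was called and of the one with the largest decrease in fitted log2 value among the 10 genes are shown, since MYT1L is known to bind a short core motif, AAGTT. The windows are the 250 bases before the RefSeq start (GRCm38.p6), written on the gene's strand, and capitals mark the motif, here on the opposite strand (AACTT). The window of Gm29478 is chr9:91404103-91404352 on the plus strand, that of Gm46102 chr9:9619785-9620034 on the minus strand, where the RefSeq start lies upstream of the GENCODE gene. Gm29478 has several starts, of which 1 is shown.
Gm29478: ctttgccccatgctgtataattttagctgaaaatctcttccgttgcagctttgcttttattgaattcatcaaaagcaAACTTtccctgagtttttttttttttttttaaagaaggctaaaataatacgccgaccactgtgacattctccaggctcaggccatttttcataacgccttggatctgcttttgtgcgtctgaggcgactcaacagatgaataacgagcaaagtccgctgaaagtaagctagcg
Gm46102: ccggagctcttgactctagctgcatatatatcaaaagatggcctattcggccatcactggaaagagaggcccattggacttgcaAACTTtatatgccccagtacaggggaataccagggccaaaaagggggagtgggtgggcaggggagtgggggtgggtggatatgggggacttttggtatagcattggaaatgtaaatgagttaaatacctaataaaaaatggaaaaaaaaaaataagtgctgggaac
Of the 10 genes, 9 have a window in this set, and the motif was found on either strand in a window of 4 of them (Gm29478, Ebf1, Gm46102 and Cabp1). It was found in 35.3% of all 32851 windows and, counted by gene as for the 9, in at least 1 window of 38.9% of 27025 genes, and a match is no evidence of binding.

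Lists of genes with known roles were described, each by its count of genes with an unadjusted p below 0.05 and its median log2 difference. Over all 10272 genes the median was 0.00, and 4.46% were higher and 3.87% lower in Het at that p. No listed gene was called. Of 14 regulators of corticothalamic and deep-layer fate, 1 had an unadjusted p below 0.05, and the median was -0.06. This was Bcl11a, a zinc finger factor of deep-layer neurons, with a log2 difference of 0.22 (edgeR adjusted p = 0.561). Foxp2 had 1418 to 1777 CPM in WT and 1619, 1378, 1624 and 1477 CPM in Het 1 to Het 4, a log2 difference of -0.11 (edgeR adjusted p = 0.741). Tbr1, Fezf2, Sox5 and Zfpm2 had log2 differences between -0.20 and -0.02.

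Of 11 regulators and markers of upper-layer and callosal neurons, 4 had an unadjusted p below 0.05, all with higher levels in Het, against 4.46% of all genes in that direction, and the median was 0.42. Mdga1, a membrane protein of upper-layer neurons, had 29.8 to 48.0 CPM in WT and 43.4, 45.5, 55.7 and 52.3 CPM in Het 1 to Het 4, a log2 difference of 0.48 (edgeR adjusted p = 0.302). Cux2, an upper-layer homeodomain factor, had a log2 difference of 0.69 and Unc5d of 0.42. Mean levels of the 4 genes were higher in Het outside the members too. Upper-layer-type WT and Het means were 486 and 601 CPM for Cux2, 587 and 752 for Cux1 and 103 and 138 for Mdga1. In other excitatory nuclei they were 222 and 318, 366 and 513, and 79.8 and 125 CPM. Unc5d was at 1037 and 1099 CPM in the former and 1130 and 1224 CPM in the latter. The higher upper-layer-type means did not hold in every Het library. There Het 4 had 400 CPM of Cux2, below the lowest WT library at 437 CPM, and it lay inside the WT range for Cux1, Mdga1 and Unc5d. The upper-layer-type rule itself used Cux2, so its level in that class is no further support. Among members with a Foxp2 UMI, 9 genes of the list were tested, 2 were higher at an unadjusted p below 0.05 and the median was 0.26. In that fit 374 of all 9453 genes were higher at that p.

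Of 37 genes of axon guidance, 6 (16.2%) were higher and 2 (5.41%) lower at an unadjusted p below 0.05. The median log2 difference was 0.06. Slit2, a repulsive guidance ligand, had a log2 difference of 0.49, Ntng1, a netrin-G of thalamocortical contacts, of 0.67, and Plxnd1, a semaphorin receptor, of 0.73 (edgeR adjusted p of 0.325 to 0.438). Ntng1 was at 159 CPM in members without Foxp2 and 28.4 CPM in those with at least 3 Foxp2 UMIs. Of 34 synaptic adhesion genes tested, 5 (14.7%) were higher and 3 (8.82%) lower at an unadjusted p below 0.05, with a median of 0.03. Cntnap5a, a contactin-associated protein, had a log2 difference of 0.52 and Flrt2, a ligand of Unc5 receptors, of -0.30. Of 19 cadherins and protocadherins, 1 (5.26%) was higher and 2 (10.5%) lower, among them Pcdh19 with -0.41 (edgeR adjusted p = 0.345).

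Of 31 glutamate and GABA receptor genes, 5 (16.1%) were higher and 1 (3.23%) lower at an unadjusted p below 0.05. The median was 0.01. Grik1, a kainate receptor subunit, had 44.2 to 104 CPM in WT and 119, 109, 94.0 and 139 CPM in Het 1 to Het 4, a log2 difference of 0.76 (edgeR adjusted p = 0.188). Grik1 was at 272 CPM in members without Foxp2 and 50.0 CPM in those with at least 3 Foxp2 UMIs, and its difference was 0.38 among members with a Foxp2 UMI. Gabra2, a GABA-A receptor subunit, had a log2 difference of 0.62 in all members and 0.58 in those with a Foxp2 UMI.

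Of 27 voltage-gated ion channel genes tested, 3 (11.1%) were higher and 2 (7.41%) lower at an unadjusted p below 0.05. Cacna2d3, a calcium channel subunit, had the smallest p of them, with a log2 difference of 0.50 (edgeR adjusted p = 0.261). Of 14 genes of immature and migrating neurons tested, 2 (14.3%) were higher and 1 (7.14%) lower, with a median of 0.13. The imprinted gene Nnat had 0.50, Cd24a 0.69 and Neurod2 -0.24 as log2 differences. Of 24 genes of synaptic vesicles and maturation tested, 2 (8.33%) were higher and 1 (4.17%) lower, with a median of -0.04. Sv2c, described above, was 1 of the higher genes. Of 16 heparan sulfate enzymes, 1 (6.25%) was higher and 1 (6.25%) lower, with a median of -0.04. The 16 included Hs3st4, which the rule used. Only 1 of 7 immediate early genes, Nr4a1, passed the filter on low counts (log2 difference -0.39).

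Marker lists of other cell types were read in the same sums. The hippocampal pair Prox1 and Zbtb20 summed to 156 to 307 CPM in WT and 213 to 622 CPM in Het members, with a Het median of 254 CPM. Zbtb20 had a log2 difference of 0.70 (edgeR adjusted p = 0.345), which was 0.23 without Het 3 (edgeR adjusted p = 0.840). The 4 striatal genes outside the rule summed to 785 to 971 CPM in WT and 502 to 795 CPM in Het, mainly Meis2, with a log2 difference of -0.33 (edgeR adjusted p = 0.345). Meis2 was at 328 CPM in members without Foxp2 and 904 CPM in those with at least 3 Foxp2 UMIs. The endothelial list of 3 genes summed to 7.54 to 23.9 CPM in WT and 12.8 to 28.4 CPM in Het, with Flt1 at a log2 difference of 1.15 (edgeR adjusted p = 0.276). The oligodendrocyte list summed to 3.57 to 11.8 CPM in WT and 11.1 to 13.7 CPM in Het, and the 2 layer 6b and subplate genes outside the rule to 11.3 to 27.6 and 18.1 to 40.0 CPM. Dlx1, a factor of inhibitory neurons, had a log2 difference of 1.07 (edgeR adjusted p = 0.470). The inhibitory list itself summed to 291 to 490 CPM in WT and 237 to 505 CPM in Het. The summed levels of the thalamic, Cajal-Retzius, intermediate progenitor, cycling, astroglial and microglial lists overlapped between the genotypes. The part of these nuclei or of free RNA in the differences above was not tested.

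Whether the Het effect differed between members and upper-layer-type nuclei was tested with a class-by-genotype term and the library as a block, over 12496 genes. Of these, 7 were called (0.056%), all with a Het minus WT difference that was higher in members than in upper-layer-type nuclei. They were Cntnap5a, Gria4, 9530059O14Rik, Nnat, Rmst, Tmeff2 and Sgcd. Within either class alone, none of the 7 passed the test for Het against WT. The count ran from 1 without Het 2 to 138 without Het 4, with 4 without Het 3, 13 without WT 3 and 25 without WT 2.

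Cntnap5a had 129 to 258 CPM in WT members (median 168) and 261, 254, 215 and 273 CPM in Het 1 to Het 4. In upper-layer-type nuclei it had 386 to 525.7 CPM in WT (median 435) and 386, 336, 329 and 369 CPM in Het 1 to Het 4. In members the Het levels lay at the upper end of the WT range or above it, and in upper-layer-type nuclei all 4 lay below the lowest WT library, Het 1 only just. The log2 differences were 0.52 ± 0.13 and -0.34 ± 0.09 (SE), and they differed by 0.86 (edgeR adjusted p = 0.0124). The gene was not called in 1 of the 12 fits that left out a library.

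Gria4, an AMPA receptor subunit, had 604 to 769 CPM in WT members and 670, 758, 778 and 916 CPM in Het 1 to Het 4. In upper-layer-type nuclei it had 731 to 1023 CPM in WT and 603, 732, 678 and 830 CPM in Het. The log2 differences of 0.20 ± 0.09 and -0.27 ± 0.09 (SE) differed by 0.46 (edgeR adjusted p = 0.0124), and Gria4 was called in all 12 fits that left out a library. Of the others, Cntnap5a and Nnat were called in 11 of these fits, 9530059O14Rik and Rmst in 10, Tmeff2 in 8 and Sgcd in 5. Gria4 was at 678 CPM in members without Foxp2 and 704 CPM in those with at least 3 Foxp2 UMIs. The other 6 called genes had higher mean levels without Foxp2, with 1287 against 420 CPM for Sgcd, 364 against 144 CPM for Cntnap5a, 208 against 59.3 CPM for 9530059O14Rik, 123 against 18.7 CPM for Rmst, 544 against 333 CPM for Tmeff2 and 151 against 87.3 CPM for Nnat. The Gria4 class difference was 0.47 when only members with a Foxp2 UMI were used (edgeR adjusted p = 0.0160).

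Tmeff2, a transmembrane protein with follistatin domains, had a log2 difference of 0.11 in members and -0.67 in upper-layer-type nuclei, where Het 1 to Het 4 had 355, 282, 280 and 441 CPM and WT libraries at least 459 CPM. The noncoding RNA 9530059O14Rik likewise had 0.08 in members and -0.63 in upper-layer-type nuclei. Sgcd, a sarcoglycan, had 0.42 and -0.21, and Nnat 0.50 and -0.13. Rmst, a noncoding RNA that partners Sox2, had 0.91 and -0.50, with Het 4 at 93.7 CPM in members. When only members with a Foxp2 UMI were used, 7 genes were again called, of which 4 were among those above (Cntnap5a, Gria4, Tmeff2 and Sgcd). Of the other 3, 9530059O14Rik then had a class difference of 0.67 and Nnat of 0.51 (edgeR adjusted p = 0.0520 for both), beside 0.71 and 0.57 with all members. Rmst had 0.88 (edgeR adjusted p = 0.422), beside 1.25.

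**Figure D5:**
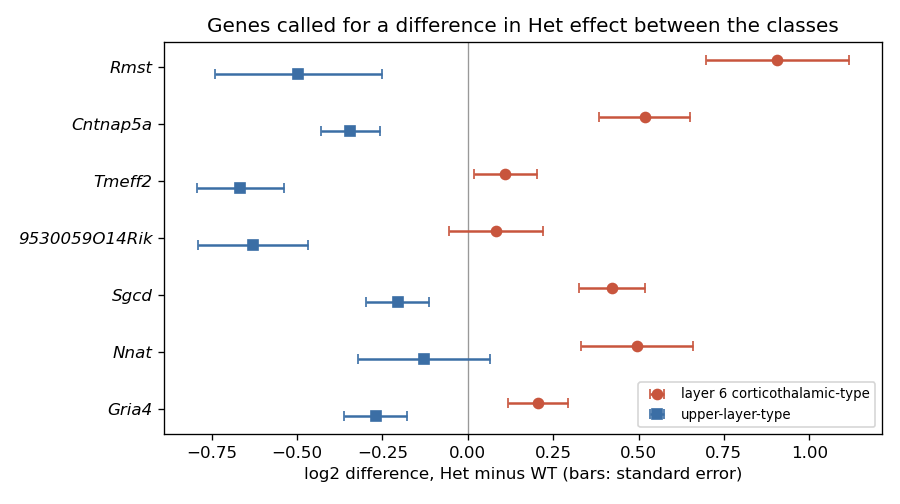
Log2 difference of Het minus WT, with its standard error, in members (circles) and in upper-layer-type nuclei (squares) for the 7 genes called by the class-by-genotype test. The values are 0.52 and -0.34 for Cntnap5a and 0.91 and -0.50 for Rmst, and for each gene the circle lies to the right of the square.

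Against the other excitatory nuclei, a comparison added after the data had been seen, 7 of 10581 genes were called (0.0662%). They were Nrp1, Gria4, Mir99ahg, Tmeff2, Cntnap5a, Sntg2 and Etl4. The test used the same member sums as the one against upper-layer-type nuclei, and the classes share nuclei. Its log2 differences were 0.50 for Gria4, 0.51 for Tmeff2 and 0.80 for Cntnap5a, beside 0.46, 0.77 and 0.86 there. Nrp1, a semaphorin receptor, had a log2 difference of 0.14 in members and 0.85 ± 0.17 (SE) in other excitatory nuclei, and Etl4 -0.22 and -1.09 ± 0.22 (SE). Within the other excitatory nuclei alone, edgeR called 0 of 9168 genes for Het against WT. There Nrp1 had 186, 315, 417 and 195 CPM in Het 1 to Het 4, against at most 192 CPM in WT libraries. Etl4 had 166 CPM in Het 4, inside the WT range of 146 to 277 CPM. Sntg2 had 1.01 and -0.05, a class difference of 1.07 (edgeR adjusted p = 0.0314) that was 0.70 among members with a Foxp2 UMI (edgeR adjusted p = 0.681). The other 6 genes were called among those members too, where 8 genes were called in all. With 1 library left out, Mir99ahg was called in 10 of 12 fits, Nrp1 and Gria4 in 9, Cntnap5a and Tmeff2 in 6, and Etl4 and Sntg2 in 4. The count ran from 0 without Het 3 to 64 without Het 4, and it was 1 without WT 1 or Het 2, 3 without WT 5 or WT 7, 4 without WT 4 and 28 without WT 2.

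Against the few layer 5-type nuclei, 10 of 7776 genes were called (0.129%). The Het minus WT difference was higher in members for 8 of them and lower for 2. With DESeq2's size factors the counts were 9 and 4. The 2 with the lower difference were Tnc and Htr1f, and Htr1f was part of the rule, so its call is not read as a result. Among Het libraries, only Het 3 had Tnc in layer 5-type nuclei, at 684 CPM, so that call rests on 1 library. The calls were led by Ptprt, Prkcb, Iqschfp, St6galnac5 and Lsamp, whose log2 differences in members lay between -0.14 and 0.60. The layer 5-type nuclei numbered 71 in WT and 36 in Het, with 5 to 15 in a library, so that a level there can rest on few UMIs. In them alone, 661 genes passed the filter, of which edgeR called 0 for Het against WT (0.0%) and 66 had an unadjusted p below 0.05. Against layer 6b/subplate-type nuclei, edgeR called 0 of 7300 genes (0.0%), while 413 had an unadjusted p below 0.05. The median class difference over these genes was -0.31 with TMM scaling and 0.01 with DESeq2's size factors, which also called 0. Ip6k1, Mgat4c and Arhgap6 had the smallest p there, with log2 differences in members of -0.30, -0.09 and 0.11.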

How the data were processed

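Nuclei of P1 forebrain had been fixed, barcoded by split pooling on shared plates and sequenced. The authors deposited expected counts, unnormalized UMI counts per gene and nucleus that are not all whole, because UMIs matching more than 1 gene were split between them, made with the ScaleRna workflow on mm10 and nuclei called against ambient RNA. Per the submitters' processing notes, Seurat 4.3.0 was used downstream. Groups followed the labels, and 1 sentence of the study's text gives the group sizes in reverse order. Libraries from separate animals were the unit of every test.

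Nuclei with 800 to 6000 UMIs, 300 to 3000 genes and at most 1% mitochondrial UMIs were kept. Likely doublets were the 5% of highest score among all barcodes of a library, before this filter, and were marked and left in. The members and gene lists were chosen with earlier results of these data known. Sums per library were rounded to whole numbers, since the design had assumed counts, and tested with edgeR 4.0.16 (R 4.3.3, quasi-likelihood, TMM, filterByExpr), with DESeq2 1.42.0 and limma 3.58.1 as alternatives. Shares were compared by exact permutation over 495 splits, of which the smallest possible p is 0.00202. The count test was tested on simulated data. It called 30.2% of the genes simulated with a log2 difference of 0.5 in either direction and 90.8% of those with 1. Of its calls, 6.35% were unchanged genes. Differences near 0.5 could thus often be missed. Sequences were taken from RefSeq. Named were Myt1l, the rule genes, called genes and those of smallest p up to 10, up to 4 genes of smallest p per list, up to 12 leading genes and up to 5 genes per class-by-genotype test. Some genes that the rule names are not reported here. Genes named beyond these, such as those of the Foxp2 split, were chosen after their values were seen. Gene positions came from GENCODE M21, which held 54587 of 55335 identifiers. Whether the counting used strand was not stated in those sources, so reads of overlapping genes, such as Nnat within Blcap, cannot be told apart. Free RNA was not subtracted.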

Additional observations from a re-analysis of the deposited data

Results flagged for a closer look

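In 36 groups of libraries tested for a library far from the rest, 3 were flagged, and chance flags about 1 in 20. Gm29478 stood at 8.12 CPM in WT 2 against at most 3.45 CPM in the other WT libraries, Cabp1 at 58.9 CPM in WT 8, and Tmem91 at 7.05 CPM in Het 2.

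The Het effect differed between members and upper-layer-type nuclei by the class-by-genotype test for Cntnap5a (log2 0.86), Gria4 (0.46), 9530059O14Rik (0.71), Nnat (0.57), Rmst (1.25), Tmeff2 (0.77) and Sgcd (0.61). Against other excitatory nuclei it differed for Nrp1 (-0.69), Gria4 (0.50), Mir99ahg (-0.60), Tmeff2 (0.51), Cntnap5a (0.80), Sntg2 (1.07) and Etl4 (0.89). The part of the members without Foxp2 and of single libraries in these differences was not tested beyond the values given above.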

How the results depend on the processing

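The difference in the share of members (-3.98 points) kept its sign throughout. Its unadjusted p was below 0.05 in limma on logit shares (log odds -0.59), with sex as covariate (-0.54) and with a replicate block (-0.43). The difference ranged from -5.06 to -3.20 points with 1 library left out. The label numbers did not pair the libraries, since deviations of same-numbered libraries correlated by 0.00972 to 0.190, and Het 4 alone correlated best with its own number. With 1 library left out, the log2 ratio to upper-layer-type nuclei ran from -1.33 to -0.59, to layer 5-type from -0.56 to 0.048 (reversed, without Het 2) and to layer 6b/subplate-type from -1.55 to -1.03. Thinning reversed the last 2 (0.21 and 0.54), and in males the layer 6b/subplate-type ratio was -1.34 (exact permutation p = 0.143). The share of members without Foxp2 differed by 6.30 points in males and by 6.09 to 8.69 with 1 library left out. The differences in depth ran, for median UMIs, from -149 to -10.8 and, for median genes, from -62.0 to -13.2 with 1 library left out.

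Calls in members (1) became 93 without the filter on low counts, 9 with DESeq2, 3 in males, 15 with the replicate block, 0 in members with a Foxp2 UMI and 0 to 13 with 1 library left out (2 without WT 1, 3 without WT 8, 11 without WT 2, 13 without Het 4). Class-by-genotype calls against upper-layer-type nuclei (7) became 144 without the filter, 73 in males and 1 to 138 with 1 library left out. Against layer 5-type nuclei (10) they became 6 without the filter and 4 to 13, against layer 6b/subplate-type nuclei (0) 1 in males and 0 to 1, and against other excitatory nuclei (7) 88 without the filter, 4 with at least 3 Hs3st4 UMIs, 20 in males and 0 to 64. The other settings moved no count by more than 1.5 times, and the cause of these shifts was not tested. The added settings (a Foxp2 UMI, other excitatory nuclei, members plus upper-layer-type nuclei as denominator) were chosen after seeing the data.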
